A study of Mus musculus with 2 samples.

Results

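The 38 genes described here encode heat-shock proteins, other molecular chaperones, the co-chaperones that work with them, and Hsf1. They were chosen by gene symbol from the 31253 genes of the count matrices, and all 38 were found. They fell into 6 groups by role. The first was 14 genes of the HSF1 type, a group chosen from general knowledge of heat induction. The others were 8 subunits of the cytosolic chaperonin TRiC, 4 mitochondrial chaperones, 9 further genes of the HSP70 system, 2 HSP90 co-chaperones and Hsf1, the regulator itself. The name of the gene set held for most members, but Hspd1, Hspe1, Hspa9 and Trap1 encode mitochondrial proteins, and Dnajb11 encodes a J-domain protein of the endoplasmic reticulum.

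Chaperones bind protein chains that are not yet folded or have lost their fold. HSP70 proteins take up such chains together with J-domain proteins, nucleotide exchange factors release them, HSP90 acts later on signalling proteins such as kinases and steroid receptors, and the barrel-shaped TRiC folds actin and tubulin. HSF1 is the transcription factor that binds heat-shock elements in promoters when unfolded protein accumulates, and it also acts in cells that grow and divide. In the thymus, double-negative (DN) cells that have made a functional T cell receptor beta chain divide rapidly, become double-positive (DP) and then rest as small cells, some of which are selected and enlarge again.

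The data are 10x Genomics 3′ v3.1 single-cell RNA counts of mouse thymocytes that had been pulled down with anti-CD25 beads, with 1 library of SETDBf/fCD4-Cre thymus (cKO) and 1 of WT thymus. CD25 is carried by DN thymocytes and by regulatory T cells. CD4-Cre places Cre under Cd4 regulatory sequences, which are known to become active as DN cells turn into DP cells. The label does not say which Setdb gene is floxed, and age, sex, strain and the number of mice are not given in the sources used here. There are no replicate libraries, so the genotypes could not be tested against each other, every interval covers counting error only, and genotype cannot be told apart from mouse, enrichment, capture or library.

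The cKO file held 8461 barcodes with 76668166 unique molecular identifiers (UMIs), and the WT file held 7852 barcodes with 89370968. After filtering, 7372 cKO cells with a median of 4653 UMIs and 6989 WT cells with a median of 7700 UMIs were kept, and 16 barcodes occurred in both libraries. Cells were placed in 10 stages by marker genes, none of which is a chaperone gene: early DN, DN cells that were non-cycling, in S phase or in G2/M, CD8-positive immature cells in S phase or in G2/M, resting DP cells, post-selection cells, Foxp3-positive cells, and Foxp3-negative cells with Tnfrsf4, Tnfrsf9 or Tnfrsf18 UMIs. The last of these gates also held much Klf2 and Ccr7, which mark mature cells, so it is named here by its rule. Each stage held at least 197 cells in each library. Stages differed in depth: the median was 28634 UMIs in cKO and 29932.5 in WT for G2/M DN cells, and 2243.5 in cKO and 2460 in WT for resting DP cells. Most stages had like medians in both libraries, but CD8-positive S-phase cells had a median of 3004 UMIs in cKO and 19132 in WT. Summed levels of 11 myeloid, stromal and red cell markers lay between 57.4 and 384 CPM (UMIs scaled to a total of 1000000 per stage) in the cKO stages and between 46.7 and 689 CPM in the WT stages, with 2 to 6 of the 11 at 0.

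Neither candidate target could check the genotype labels, because the counts come from the 3′ ends of transcripts and a deleted exon need not lower them. Setdb1 lay between 17.3 and 34.6 CPM in the cKO stages and between 20.1 and 38.7 CPM in the WT stages, and in resting DP cells it was 28.0 CPM in cKO and 28.5 CPM in WT. Setdb2 lay between 4.38 and 10.6 CPM in cKO and between 3.78 and 10.4 CPM in WT. Cd4 itself was at 2.18 CPM in cKO and 0.838 CPM in WT in early DN cells, and at 589 CPM in cKO and 564 CPM in WT in resting DP cells.

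Promoters were searched for heat-shock elements, which HSF1 is known to bind and which are built of alternating NGAAN units, to see which members carry them. A pair of units was searched as TTCNNGAA or GAANNTTC, and 3 units in a row as TTCNNGAA followed by NNTTC or GAANNTTC followed by NNGAA, on both strands of the 250 bases before each annotated start. RefSeq promoters of GRCm38.p6 were at hand for 30 of the 38 genes. Those of Hspa8, Hsp90aa1, Hsp90ab1, Cct4, Hspa9, Dnajc2, St13 and Hsf1 were not searched. A gene was counted where any of its annotated starts held a match. A pair of units stood in 10 of the 30 genes, and in 3932 of all 27025 genes of the table (14.5%) or 4218 of its 32851 windows (12.8%). A run of 3 stood in 3 of the 30 genes, and in 139 of all genes (0.514%) or 153 windows (0.466%). Among the groups, the pair stood in 5 of 11 HSF1-type genes, 2 of 7 chaperonin genes, 2 of 3 mitochondrial genes, 1 of 7 genes of the HSP70 system and neither of the 2 HSP90 co-chaperones. Runs of 3 units occurred in Hspd1, Hspe1 and Dnajb6, and in 0 of the 11 HSF1-type genes searched. A match to these letters is a description of sequence and not a bound site. The genes holding a pair of units are shown with 30 bases around the match, 5′ to 3′ on the strand of the gene, with the matched letters in capitals.
Hsph1: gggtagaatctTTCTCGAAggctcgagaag
Dnaja1: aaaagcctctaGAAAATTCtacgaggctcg
Fkbp4: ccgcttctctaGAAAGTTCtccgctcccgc
Hspe1: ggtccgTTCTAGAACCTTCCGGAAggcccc
Hspd1: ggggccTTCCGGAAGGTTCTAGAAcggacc
Dnajb6: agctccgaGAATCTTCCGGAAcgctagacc
Cct2: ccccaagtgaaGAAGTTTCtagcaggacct
Cct5: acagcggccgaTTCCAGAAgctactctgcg

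The sites lie on GRCm38.p6 at chr5:149636351-149636380 on the minus strand for Hsph1, chr4:40722333-40722362 on the plus strand for Dnaja1 and chr6:128438789-128438818 on the minus strand for Fkbp4. Hspe1 and Hspd1 are divergent neighbours on chromosome 1 and share 1 site, chr1:55088053-55088082, read on the plus strand for Hspe1 and on the minus strand for Hspd1. Dnajb6 has its site at chr5:29735844-29735873 on the plus strand, Cct2 at chr10:117063399-117063428 on the minus strand and Cct5 at chr15:31601862-31601891 on the minus strand. The Hsph1 match runs from base -33 to base -26 relative to the start. Hspa1a and Hspa1b, the pair of strictly inducible HSP70 genes, are copies on chromosome 17 with near-identical promoter windows. Their 250 bases before the start are shown whole.
Hspa1a: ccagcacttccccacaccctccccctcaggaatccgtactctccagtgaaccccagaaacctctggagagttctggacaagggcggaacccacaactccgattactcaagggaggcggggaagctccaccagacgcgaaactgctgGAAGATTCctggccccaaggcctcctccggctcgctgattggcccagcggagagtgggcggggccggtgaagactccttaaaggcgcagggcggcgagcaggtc
Hspa1b: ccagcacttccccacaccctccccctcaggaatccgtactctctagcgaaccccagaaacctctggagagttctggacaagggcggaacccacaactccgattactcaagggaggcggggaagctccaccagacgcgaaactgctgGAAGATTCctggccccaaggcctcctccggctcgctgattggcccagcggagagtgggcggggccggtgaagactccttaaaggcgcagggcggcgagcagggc

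The Hspa1a window is chr17:34972157-34972406 and the Hspa1b window chr17:34959239-34959488, both on the minus strand. They are identical at 247 of 250 bases (98.8%). Their longest transcripts are 85.5% identical, but the last 300 bases, near which 3′ reads fall, are 52.8% identical. Since the division of reads between the copies is not known, they are also given summed.

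The first comparison asked whether chaperone RNA differed between cKO and WT cells of the same stage. Summed HSF1-type RNA was lower in the cKO library in every one of the 10 stages, from early DN cells to Foxp3-positive cells. Hsph1 was past 1.5-fold in 8 of these stages. The sum is mostly the RNA of 3 abundant genes. In G2/M DN cells of WT, Hspa8 held 4335, Hsp90ab1 4812 and Hsp90aa1 2687 of 13953 CPM. Chaperonin RNA was closer to WT. Levels are CPM of the summed UMIs of a stage, folds are log2 of (CPM + 5) in cKO over (CPM + 5) in WT, and a gene is counted as lower or higher past 1.5-fold where it had at least 20 UMIs over both libraries. Taking each gene in each stage as a pair, 17 of 125 HSF1-type pairs with enough UMIs were at least 1.5-fold lower in cKO. Of these 17, 8 were of the single gene Hsph1. No HSF1-type pair was higher, and 118 had a fold below 0. Chaperonin subunits gave 0 of 80 pairs past 1.5-fold in either direction, with 73 of 80 below 0. Over all genes, the share lower in cKO by the same rule ran from 0.228% in CD8-positive G2/M cells to 4.11% in Foxp3-positive cells. The chaperonin count of 0 is near that background. The share of all genes with a fold below 0 was not counted for any stage.

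Hsph1 encodes HSP110, a nucleotide exchange factor of HSP70. Its level in cKO cells was 32.8 CPM in early DN cells, 14.4 CPM in non-cycling DN cells, 57.0 CPM in S-phase DN cells and 66.9 CPM in G2/M DN cells, against 84.6, 39.7, 95.2 and 142 CPM in the same stages of WT. Among CD8-positive cells it was 72.4 CPM in S phase, 62.9 CPM in G2/M and 13.5 CPM in resting DP cells of cKO, against 93.0, 127 and 24.6 CPM in WT. Later cells held 30.7 CPM after selection, 53.0 CPM in Foxp3-negative Tnfrsf-positive cells and 27.3 CPM in Foxp3-positive cells of cKO, against 72.1, 70.2 and 61.1 CPM in WT. Every cKO value was below the WT value of its stage. The cKO over WT ratio was 0.363 (95% interval 0.287 to 0.456) in non-cycling DN cells and 0.388 (0.325 to 0.461) in early DN cells, the stage with the lowest log2 fold, -1.24. It was 0.472 (0.426 to 0.522) in G2/M DN cells, 0.494 (0.451 to 0.540) in CD8-positive G2/M cells and 0.447 (0.322 to 0.612) in Foxp3-positive cells. In CD8-positive S-phase cells (0.779, 0.664 to 0.913) and Foxp3-negative Tnfrsf-positive cells (0.756, 0.576 to 0.990) the difference did not pass 1.5-fold. The early DN gate, whose Cd4 level was at or under 2.18 CPM, held 65.1% cycling cells in cKO and 53.3% in WT. In its non-cycling cells the log2 fold of Hsph1 was -1.14 and that of Hspa8 -0.07.

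**Figure D1:**
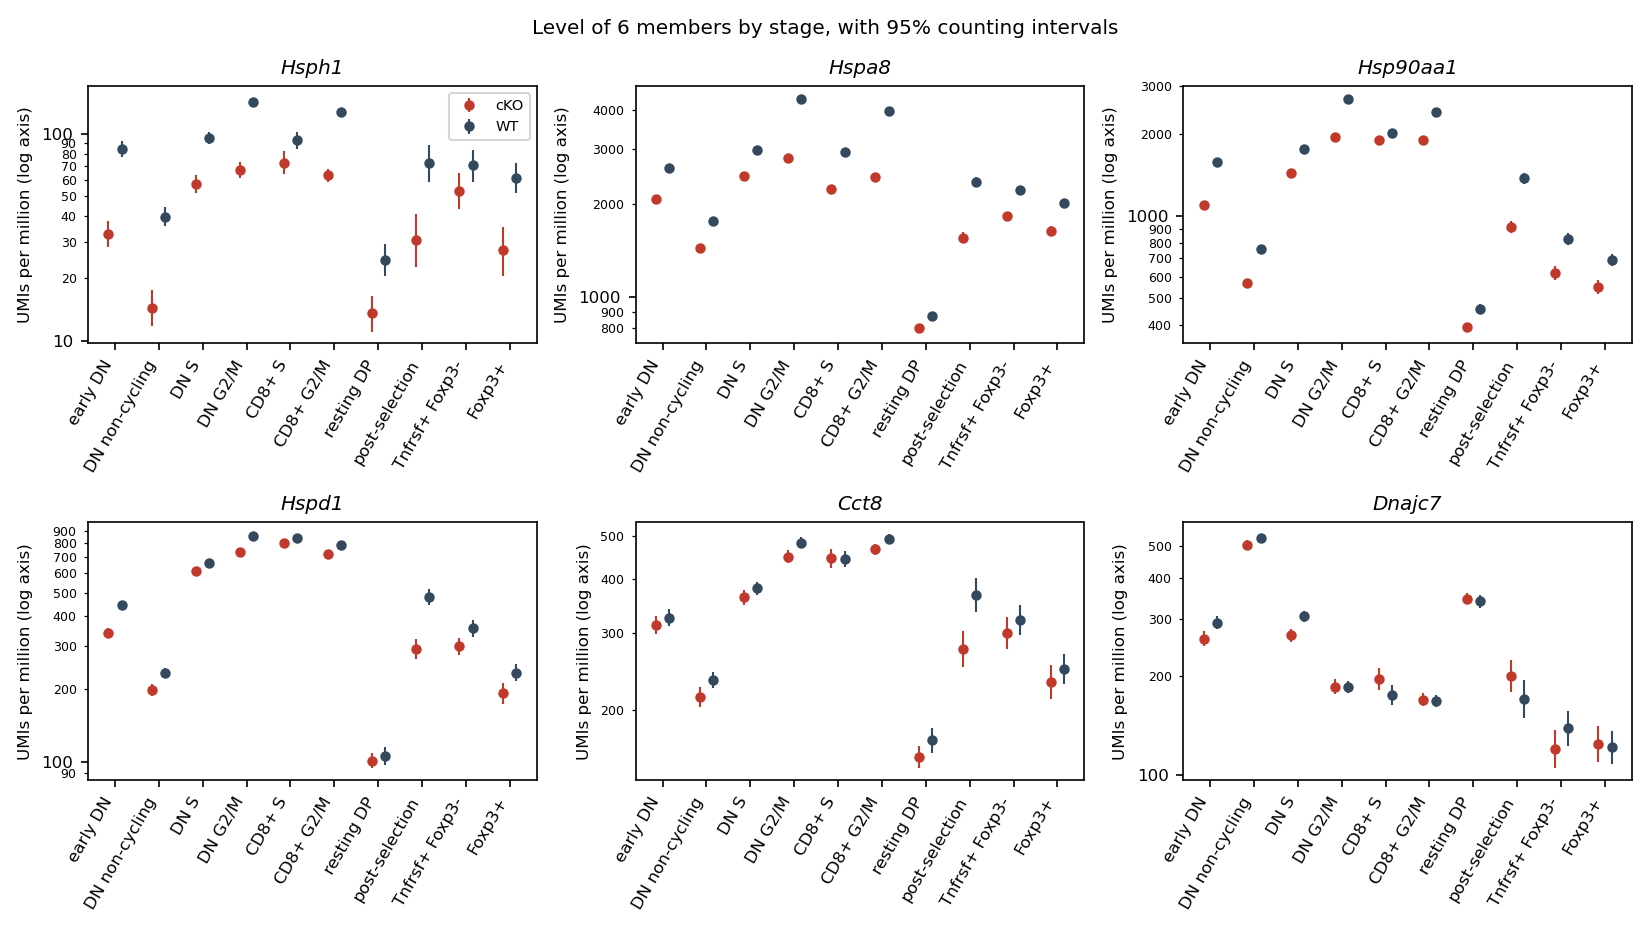
Level in CPM on a log axis for 6 of the genes in the 10 stages, cKO (red) left of WT (dark), with 95% counting intervals. Hsph1 is lower in cKO in every stage, 66.9 against 142 CPM in G2/M DN cells. Cct8 lies closer in that stage, 449 CPM in cKO and 484 CPM in WT, but has a log2 fold of -0.40 after selection, its lowest. Dnajc7 has its highest level in non-cycling DN cells in both libraries.

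Hspa1a and Hspa1b were near the floor of detection. In G2/M DN cells Hspa1a had 2 UMIs in cKO and 51 in WT, a ratio of 0.0552 (0.00651 to 0.210), and Hspa1b had 1 UMI in cKO and 54 in WT, a ratio of 0.0261 (0.000649 to 0.152). For Hspa1b the counts were 5 in cKO and 67 in WT in early DN cells (ratio 0.0808, 0.0254 to 0.198) and 6 in cKO and 64 in WT in CD8-positive G2/M cells (0.112, 0.0396 to 0.257). Resting DP cells differed from this pattern. There Hspa1b had 19 UMIs in cKO and 9 in WT, a ratio of 1.52 with an interval of 0.654 to 3.81 that spans 1, and Hspa1a had 9 in cKO and 1 in WT.

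Hspa8 encodes the constitutive HSP70, whose RNA heat raises further. It was at 2809 CPM in cKO and 4335 CPM in WT in G2/M DN cells (ratio 0.648, 0.637 to 0.659), and at 2442 CPM in cKO and 3954 CPM in WT in CD8-positive G2/M cells (0.617, 0.608 to 0.627). After selection it was 1551 CPM in cKO and 2346 CPM in WT (0.661, 0.627 to 0.698). In the other 7 stages it was lower in cKO by less than 1.5-fold, with log2 folds of -0.14 in resting DP cells to -0.39 in CD8-positive S-phase cells. Of the post-selection Hspa8 UMIs, 26.3% in cKO and 32.9% in WT came from 5 cells, so few cells carry that stage's value. Cycling cells made up 10.1% of the post-selection gate in cKO and 14.2% in WT, with the cycling genes Top2a at 263 CPM in cKO and 380 CPM in WT and Mcm3 at 101 CPM in cKO and 191 CPM in WT. In the non-cycling cells of that gate the log2 fold of Hspa8 was -0.31, no longer past 1.5-fold, against -0.60 in all its cells, while that of Hsph1 was -0.98.

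Hsp90aa1, the inducible HSP90, passed 1.5-fold in post-selection cells, at 914 CPM in cKO and 1376 CPM in WT (0.665, 0.620 to 0.713). In the non-cycling cells of that gate its log2 fold was -0.40, against -0.59 in all its cells, which ends the call. In G2/M DN cells it was 1945 CPM in cKO and 2687 CPM in WT, and in resting DP cells 391 CPM in cKO and 458 CPM in WT. Its constitutive relative Hsp90ab1 was lower by log2 0.13 to 0.38, at 4142 CPM in cKO and 4812 CPM in WT in G2/M DN cells. The interval of the ratio lay below 1 in all 10 stages for both HSP90 genes. Such intervals narrow as UMIs rise, so for genes with many UMIs they exclude 1 at small folds. The share of all genes with an interval below 1 was not counted.

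Co-chaperones of the same group leaned the same way by smaller amounts. Dnaja1, a J-domain partner of HSP70, had log2 folds of -0.14 to -0.51, with the interval below 1 in 10 of 10 stages. For Chordc1, an HSP90 co-chaperone, the folds were -0.07 to -0.51, with the interval below 1 in 9 stages. Stip1, the adaptor between HSP70 and HSP90, had the interval below 1 in 8 stages and passed 1.5-fold in Foxp3-negative Tnfrsf-positive cells, at 78.5 CPM in cKO and 126 CPM in WT (0.624, 0.504 to 0.771). In the non-cycling cells of that gate, which held 10.4% cycling cells in cKO and 9.80% in WT, the log2 fold of Stip1 was -0.44, against -0.65 in all its cells, and did not pass. Ahsa1, which activates the HSP90 ATPase, had it below 1 in 7 stages, and Fkbp4, an immunophilin of HSP90 complexes, and Hspa4l, an HSP110 relative, in 6 each.

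Not all heat-inducible genes followed. Dnajb1, the main inducible J-domain protein, had folds of -0.29 to 0.33 and was above WT after selection, at 144 CPM in cKO and 113 CPM in WT (1.27, 1.03 to 1.57). Bag3, a nucleotide exchange factor of stressed cells, had enough UMIs in 5 stages and lay at 2.86 CPM in cKO and 1.31 CPM in WT in S-phase DN cells (20 and 12 UMIs; ratio 2.18, 1.02 to 4.90). Dnajb1 and Bag3 gave the 2 HSF1-type pairs whose interval lay above 1. Hsf1 itself was at 20.5 CPM in cKO and 34.3 CPM in WT in Foxp3-positive cells (42 and 82 UMIs; 0.596, 0.401 to 0.875). Elsewhere its folds lay between -0.25 and 0.22. The Foxp3-positive gate differed in maturity markers as well, with Klf2 at 1720 CPM in cKO and 1148 CPM in WT and S1pr1 at 186 CPM in cKO and 131 CPM in WT, and their part in the results of this gate was not tested.

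Read stage by stage, members past 1.5-fold were few and all lower in cKO. Early DN cells had 2 of the 37 members with enough UMIs lower, Hsph1 and Hspa1b, and 0 higher, where 0.685% of all genes were lower and 0.418% higher. Non-cycling DN cells had 1 of 38 lower, Hsph1, and 0 higher, where 0.612% of all genes were lower and 0.584% higher. In S-phase DN cells Hsph1 was the 1 of 37 lower and 0 were higher (0.416% of all genes lower, 0.227% higher). In G2/M DN cells 4 of 38 were lower, Hsph1, Hspa1a, Hspa1b and Hspa8, and 0 higher (0.368% of all genes lower, 0.261% higher). CD8-positive S-phase cells had 0 of 36 lower and 0 higher (1.04% of all genes lower, 0.865% higher). CD8-positive G2/M cells had 3 of 38 lower, Hsph1, Hspa1b and Hspa8, and 0 higher (0.228% of all genes lower, 0.181% higher). Resting DP cells had Hsph1 as 1 of 36 lower and 0 higher (0.453% of all genes lower, 0.613% higher). The background was larger in the later stages, which had fewer UMIs in all. Post-selection cells had 4 of 35 lower, Hsph1, Hspa8, Hsp90aa1 and Hspd1, and 0 higher (3.76% of all genes lower, 5.90% higher). Foxp3-negative Tnfrsf-positive cells had 1 of 35 lower, Stip1, and 0 higher (3.15% of all genes lower, 3.29% higher). Foxp3-positive cells had 2 of 35 lower, Hsph1 and Hsf1, and 0 higher (4.11% of all genes lower, 2.81% higher). The counts of the Foxp3-negative Tnfrsf-positive and Foxp3-positive cells are near their background. In non-cycling cells alone the post-selection call of Hsph1 and the Foxp3-positive calls of Hsph1 and Hsf1 held, with log2 folds of -0.98, -1.04 and -0.63, and the other calls of the 3 later gates did not. Few cells carry the Hsph1 values too. Of all post-selection Hsph1 UMIs, 38.3% in cKO and 35.1% in WT came from 5 cells. In Foxp3-positive cells these shares were 32.1% in cKO and 24.0% in WT.

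The median log2 fold of the HSF1-type genes was -0.41 in early DN cells, -0.27, -0.28 and -0.45 in non-cycling, S-phase and G2/M DN cells, -0.13 in CD8-positive S-phase cells, -0.31 in CD8-positive G2/M cells and -0.15 in resting DP cells. It was -0.42 after selection (-0.31 in non-cycling cells), -0.28 in Foxp3-negative Tnfrsf-positive cells and -0.33 in Foxp3-positive cells. Medians over all genes lay between -0.04 and 0.05 in these stages. The summed HSF1-type level was 10475 CPM in cKO and 13953 CPM in WT in G2/M DN cells, and the ratio of the sums ran from 0.734 after selection to 0.878 in CD8-positive S-phase cells. That S-phase gate is the one whose depths differ between libraries. Where at least 10 UMIs of a cycling list were required instead of 3, it held 121 cKO cells with a median of 26097 UMIs and 159 WT cells with 27439, and Hsph1 then had a log2 fold of -0.31, Hspa8 of -0.35 and Hspd1 of 0.00. With the first gate and cells thinned to 2000 UMIs, the folds were -0.43 for Hsph1, -0.58 for Hspa8, -0.36 for Hsp90aa1, -0.54 for Cct3 and -0.52 for Hspd1, against -0.34, -0.39, -0.08, -0.07 and -0.07 without thinning. All 5 folds were lower after thinning.

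The 8 subunits of TRiC (Tcp1, Cct2, Cct3, Cct4, Cct5, Cct6a, Cct7 and Cct8) form 1 complex, and their folds lay closer together. Group medians were -0.16 in early DN cells, -0.14, -0.07 and -0.15 in the DN stages, -0.04 in CD8-positive S-phase cells, -0.11 in CD8-positive G2/M cells and -0.08 in resting DP cells. The lowest median was -0.21, after selection (-0.12 in non-cycling cells), where Tcp1 was at 202 CPM in cKO and 303 CPM in WT (0.665, 0.572 to 0.773), just inside the limit of 1.5-fold with a log2 fold of -0.58. Cct8 was there at 276 CPM in cKO and 367 CPM in WT (0.752, 0.659 to 0.858). Tcp1 in resting DP cells, at 114 CPM in cKO and 148 CPM in WT, had the third lowest fold. At the other end, Cct4 was at 379 CPM in cKO and 361 CPM in WT in CD8-positive S-phase cells (1.05, 0.977 to 1.13) and had folds of -0.21 to 0.07, and after selection it was at 281 CPM in cKO and 274 CPM in WT. Cct7 was at 195 CPM in cKO and 188 CPM in WT in resting DP cells (1.04, 0.957 to 1.13). The interval of the ratio lay below 1 in 45 of the 80 chaperonin pairs, against 94 of the 125 HSF1-type pairs. Neither count has a share of all genes beside it. The chaperonin sum ran from 0.859 of WT after selection to 0.975 in CD8-positive S-phase cells.

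**Figure D2:**
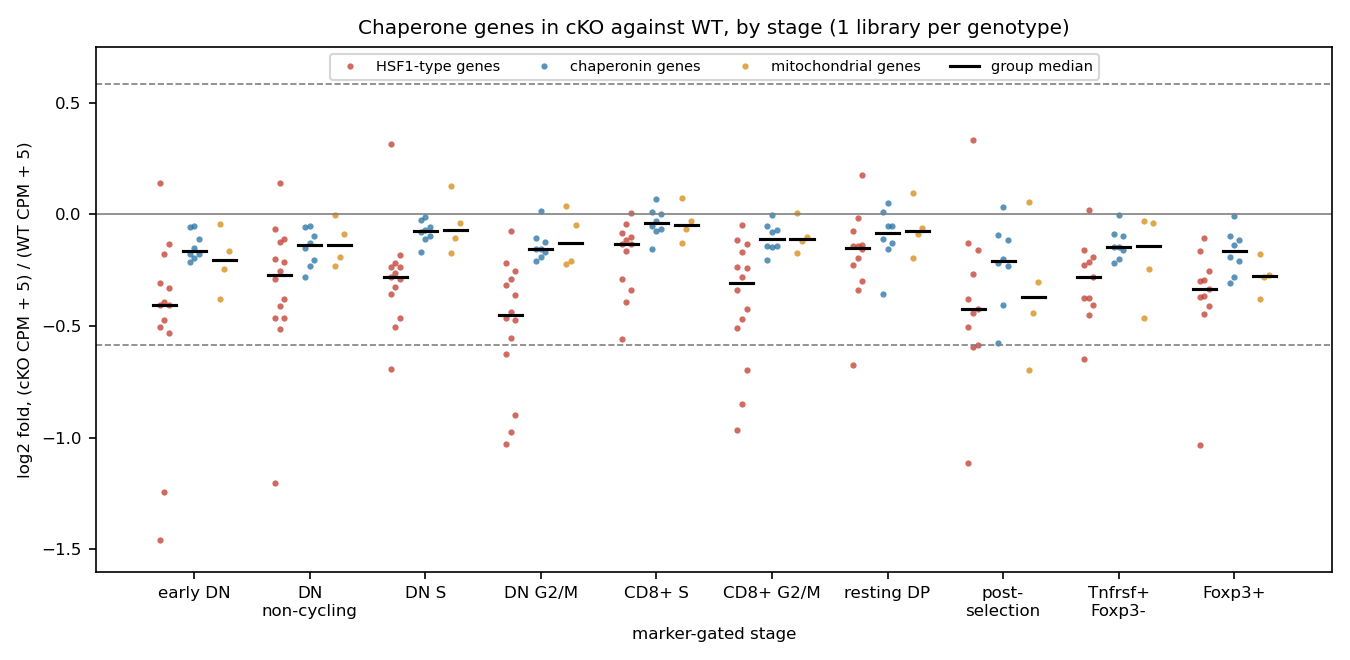
Log2 fold of cKO over WT for each HSF1-type, chaperonin and mitochondrial gene in each stage, with a black bar at the group's median and dashed lines at 1.5-fold. HSF1-type medians run from -0.13 to -0.45 and chaperonin medians from -0.04 to -0.21.

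Mitochondrial chaperones held 1 pair of 40 past 1.5-fold, near the background, as 0.228% to 4.11% of all genes were lower by stage. Hspd1, the mitochondrial chaperonin HSP60, was at 294 CPM in cKO and 480 CPM in WT after selection (0.613, 0.542 to 0.692), with 44.2% of its UMIs in cKO and 39.4% in WT coming from 5 cells. In the non-cycling cells of that gate its log2 fold was -0.31, against -0.70 in all its cells, which ends the call. In resting DP cells it was 101 CPM in cKO and 106 CPM in WT. Its partner Hspe1, HSP10, had the interval below 1 in all 10 stages, with folds of -0.13 to -0.46, and was at 612 CPM in cKO and 845 CPM in WT in Foxp3-negative Tnfrsf-positive cells (0.724, 0.670 to 0.782). After selection it was 455 CPM in cKO and 619 CPM in WT. Hspa9, the mitochondrial HSP70, had folds of -0.30 to 0.07, with the highest in CD8-positive S-phase cells, at 284 CPM in cKO and 270 CPM in WT. Trap1, the mitochondrial HSP90, had folds of -0.38 to 0.13, with the highest in S-phase DN cells, at 78.4 CPM in cKO and 71.4 CPM in WT (1.10, 0.978 to 1.23), and the next in resting DP cells, at 30.7 CPM in cKO and 28.4 CPM in WT.

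No gene of the remaining HSP70 system passed 1.5-fold between genotypes in any of 90 pairs. Over all genes 0.228% to 4.11% were lower by stage, so this count is near the background. Of the 90 folds, 62 were below 0, with no share of all genes beside that count. The lowest fold was that of Dnajb11, at 32.9 CPM in cKO and 44.4 CPM in WT in non-cycling DN cells (0.740, 0.625 to 0.875). Hspa14, which works at the ribosome, was at 98.6 CPM in cKO and 126 CPM in WT after selection, and Hspa4, another HSP110 relative, at 151 CPM in cKO and 185 CPM in WT in early DN cells. The highest was Dnajc7, a co-chaperone of HSP70 and HSP90, at 201 CPM in cKO and 171 CPM in WT after selection (1.17, 0.985 to 1.40). In CD8-positive S-phase cells Dnajc7 was at 196 CPM in cKO and 175 CPM in WT, and Dnajc2, a ribosome-bound J-domain protein, at 198 CPM in cKO and 177 CPM in WT. Dnajb6, which restrains protein aggregation, had folds of -0.07 to 0.16, and Dnaja2, Dnajc2, Bag1 and St13 stayed within -0.25 and 0.16. Of the HSP90 co-chaperones, Cacybp had folds of -0.05 to -0.44, with the interval below 1 in 8 stages, and was at 203 CPM in cKO and 277 CPM in WT after selection, 125 CPM in cKO and 163 CPM in WT in non-cycling DN cells, and 342 CPM in cKO and 428 CPM in WT in G2/M DN cells. Ptges3, the co-chaperone p23, had folds of -0.21 to 0.13 and was at 78.5 CPM in cKO and 71.3 CPM in WT in resting DP cells, 347 CPM in cKO and 335 CPM in WT in S-phase DN cells, and 218 CPM in cKO and 216 CPM in WT after selection. Summed over all groups, 19 of 365 pairs were lower past 1.5-fold, 8 of them of the single gene Hsph1, and 0 were higher. Over all genes 0.228% to 4.11% were lower by stage. An interval below 1 was found in 190 pairs, against 4 above. The interval counts have no share of all genes beside them.

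The second comparison asked how chaperone RNA differed between cycling and non-cycling cells within a library. Chaperonin subunits, mitochondrial chaperones and HSP90 co-chaperones were higher in cycling cells in both libraries. In G2/M over non-cycling DN cells, 27 of 36 members were at least 1.5-fold higher in cKO (14.8% of all genes) and 25 of 38 in WT (14.0%). One gene, Dnajc7, was lower in each library (24.7% of all genes in cKO and 24.3% in WT). In CD8-positive G2/M over resting DP cells, 24 of 37 members were higher in cKO (16.2%) and 25 of 37 in WT (16.7%), with 3 lower in cKO (38.1%) and 4 lower in WT (38.8%). S-phase over non-cycling DN cells gave 21 of 37 higher in cKO (9.06%) and 18 of 38 in WT (7.41%), with Dnajc7 the 1 lower in each (10.6% of all genes in cKO and 6.93% in WT). CD8-positive S-phase over resting DP cells gave 24 of 36 higher in each library (14.8% of all genes in cKO and 16.4% in WT), with 4 lower in cKO (39.0%) and 3 in WT (39.4%). Both CD8-positive contrasts share the resting DP cells of their library.

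Chaperonin genes were higher in 7 of 8 cases in each library in G2/M over non-cycling DN cells, with medians of 0.85 in cKO and 0.87 in WT on the log2 scale. The exception was Cct4, with 0.55 in cKO and 0.49 in WT. In CD8-positive G2/M over resting DP cells 8 of 8 were higher in each library (medians 1.31 in cKO and 1.35 in WT). Cct6a was at 407 CPM in G2/M and 114 CPM in resting DP cells of cKO (ratio 3.57, 3.32 to 3.85), and at 449 CPM in G2/M and 118 CPM in resting DP cells of WT (3.80, 3.50 to 4.13). Medians over all genes were -0.17 in cKO and -0.19 in WT for the DN contrast and -0.35 in cKO and -0.34 in WT for the CD8-positive contrast on the log2 scale.

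All 4 mitochondrial chaperones were higher in both contrasts and both libraries, with medians of 1.12 in cKO and 1.07 in WT in DN cells and 2.18 in cKO and 2.12 in WT in CD8-positive cells. Hspd1 was at 725 CPM in CD8-positive G2/M cells and 101 CPM in resting DP cells of cKO, a ratio of 7.16 (6.64 to 7.73). In WT it was 789 CPM in G2/M and 106 CPM in resting DP cells, a ratio of 7.46 (6.85 to 8.13). Both HSP90 co-chaperones were higher as well, Ptges3 at 472 CPM in G2/M and 136 CPM in non-cycling DN cells of cKO, and at 473 CPM in G2/M and 158 CPM in non-cycling DN cells of WT.

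**Figure D3:**
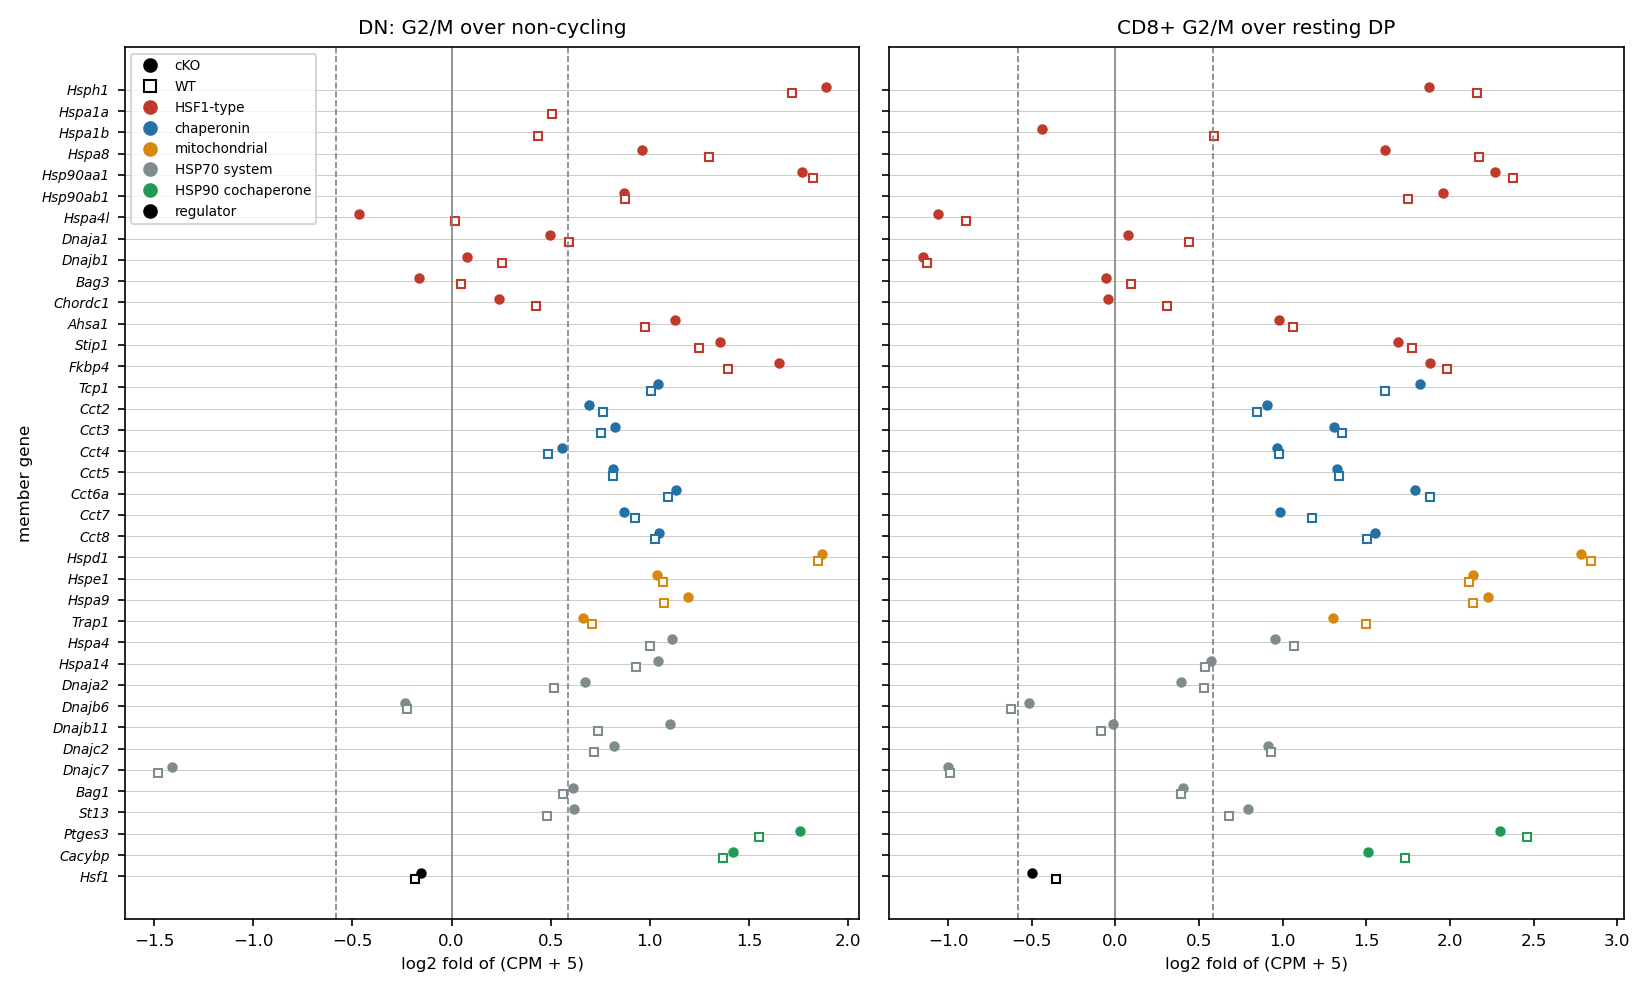
Log2 fold of G2/M over non-cycling DN cells (one panel) and of CD8-positive G2/M over resting DP cells (other panel) for each member with at least 20 UMIs, cKO as filled circles above WT as open squares, coloured by role, with dashed lines at 1.5-fold. Hspd1 is at 2.78 in cKO and 2.84 in WT in the CD8-positive contrast, and Dnajc7 is at -1.41 in cKO and -1.48 in WT in the DN contrast.

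HSF1-type genes split. In G2/M over non-cycling DN cells 7 of 12 were higher in cKO and 8 of 14 in WT, with medians of 0.92 in cKO and 0.73 in WT. These medians rest on unlike sets of genes, and with no filter on low counts the cKO median was 0.68. Hsph1, Hspa8, Hsp90aa1, Hsp90ab1, Ahsa1, Stip1 and Fkbp4 were higher in both libraries. Hsph1 was at 66.9 CPM in G2/M and 14.4 CPM in non-cycling DN cells of cKO (4.64, 3.73 to 5.83), and at 142 CPM in G2/M and 39.7 CPM in non-cycling DN cells of WT (3.57, 3.18 to 4.02). For Hspa8 the log2 fold was 0.96 in cKO and 1.30 in WT, and the ratio in CD8-positive cells was 3.07 (2.98 to 3.16) in cKO and 4.52 (4.39 to 4.66) in WT. Hspa4l and Dnajb1 were lower in CD8-positive G2/M than in resting DP cells in both libraries. Dnajb1 was at 95.8 CPM in G2/M and 219 CPM in resting DP cells of cKO (0.437, 0.404 to 0.473), and at 99.1 CPM in G2/M and 222 CPM in resting DP cells of WT (0.446, 0.412 to 0.484).

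Dnajc7 was the member lower in cycling cells in both contrasts and both libraries. In DN cells it was at 186 CPM in G2/M and 503 CPM in non-cycling cells of cKO (0.370, 0.347 to 0.394), and at 186 CPM in G2/M and 528 CPM in non-cycling cells of WT (0.352, 0.334 to 0.371). Of the remaining HSP70 system, 7 of 9 genes were higher in G2/M DN cells in cKO and 4 of 9 in WT. Dnaja2, Bag1 and St13 were past the limit in cKO and short of it in WT, with log2 folds of 0.67, 0.61 and 0.62 in cKO and 0.52, 0.56 and 0.48 in WT. Hsf1 passed the limit in neither contrast.

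Cycling cells were also deeper. Each G2/M DN cell held on average 315 HSF1-type UMIs in cKO and 425 in WT, and 102 chaperonin UMIs in cKO and 114 in WT. A resting DP cell held 8.57 HSF1-type UMIs in cKO and 10.7 in WT, and 3.58 chaperonin UMIs in cKO and 4.10 in WT. The gates need a minimum of cycling UMIs, and the part of this minimum in the depth of cycling cells was not tested. With at least 10 cycling UMIs required, the G2/M DN medians were 28687.5 UMIs in cKO and 30070 in WT, against 28634 and 29932.5 before. The medians of CD8-positive S-phase cells were then 26097 UMIs in cKO and 27439 in WT, against 3004 and 19132 before. Where values came from cells thinned to 2000 UMIs, the HSF1-type median of the DN contrast was 0.95 in cKO and 1.03 in WT.

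Ordered by level over the 10 stages, 27 of the 38 members were highest in a cycling stage in cKO and 30 in WT, and 21 were lowest in resting DP cells in cKO and 26 in WT. The stage of the highest level was the same in both libraries for 22. The shares of all genes with these orders were not counted, so the counts have no background beside them. All 8 chaperonin genes were highest in a cycling stage in both, with the highest level 2.05 to 3.66 times the lowest in cKO and 1.94 to 4.03 times in WT. For 8 of 8 of them in cKO the intervals of the top 2 stages overlapped, so these stages are not ordered. For Hspd1 the span was 7.91 in cKO and 8.07 in WT. Dnajb1 and Dnajb6 were highest in resting DP cells, Hspa4l after selection and Dnajc7 in non-cycling DN cells, in both libraries, with intervals that did not overlap those of the next stage.

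Post-selection cells stood above resting DP cells in 21 of 36 members in cKO (11.5% of all genes) and in 21 of 35 in WT (13.5%), with 2 lower in each, Dnajb1 and Dnajc7 (14.1% in cKO and 22.7% in WT). Hspd1 had a log2 fold of 1.49 in cKO and 2.13 in WT, and Ptges3 of 1.42 in cKO and 1.53 in WT. Chaperonin medians were 0.78 in cKO and 0.85 in WT. By the gate, resting DP cells held 0% cycling cells, whereas post-selection cells held 10.1% in cKO and 14.2% in WT. Top2a was at 263 CPM in post-selection and 19.8 CPM in resting DP cells of cKO, and at 380 CPM in post-selection and 26.3 CPM in resting DP cells of WT, and the part of cycling cells in this contrast was not tested. The selected cells, all set against the same resting DP cells, differed among themselves. Foxp3-negative Tnfrsf-positive cells were above resting DP cells in 17 of 36 members in cKO and 18 of 35 in WT (13.9% of all genes in each), with Dnajb1 and Dnajc7 lower in both libraries (30.4% of all genes in cKO and 31.7% in WT).

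Foxp3-positive cells, whose gate is defined by the regulatory T cell factor, were closer to resting DP cells, with 6 of 36 members higher in cKO (13.0%) and 8 of 35 in WT (14.7%), both near the background. Lower were 4 in cKO (32.9%), Dnajb1, Chordc1, Dnajc7 and Hsf1, and 3 in WT (33.9%), Dnajb1, Dnajb6 and Dnajc7. Hsph1, Hspa8, Hsp90ab1, Cct5, Hspd1 and Hspe1 were higher in both libraries. Hspd1 was at 192 CPM in Foxp3-positive cells and 300 CPM in Foxp3-negative Tnfrsf-positive cells of cKO, and at 234 CPM in Foxp3-positive cells and 356 CPM in Foxp3-negative Tnfrsf-positive cells of WT. Summed myeloid, stromal and red cell markers were 384 CPM in Foxp3-positive and 251 CPM in Foxp3-negative Tnfrsf-positive cells of cKO, and 170 CPM in Foxp3-positive and 689 CPM in Foxp3-negative Tnfrsf-positive cells of WT, and their part in the result was not tested.

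How many cells held a gene was read from the share of cells with a UMI after each cell was thinned to 2000 UMIs. Hsph1 was found in 9.20% of cKO and 25.6% of WT G2/M DN cells (23 of 250, exact 95% interval 5.92 to 13.5, and 89 of 348, 21.1 to 30.5). Before thinning the shares were 69.6% in cKO and 88.8% in WT. In non-cycling DN cells Hsph1 was found in 2.11% of cKO and 6.72% of WT cells, and in Foxp3-positive cells in 2.99% of cKO and 8.91% of WT cells. Resting DP cells gave 2.39% in cKO (45 of 1885, 989 shallower cells left out) and 4.54% in WT (68 of 1499, 423 left out). No cell type of these libraries is known to lack Hsph1, so no background share could be set beside these. Fewer cells expressing the gene and less RNA per cell cannot be told apart from shares alone.

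Hspa1a or Hspa1b was found in 0 of 250 thinned cKO cells of G2/M DN, which allows a share of cells with a UMI of up to 1.20% by the limit of 3 counts and up to 1.46% by the exact 95% interval, and in 8 of 348 WT cells (2.30%, 0.998 to 4.48). Before thinning it was found in 1.20% of cKO cells and 12.4% of WT cells, from 3 UMIs in cKO and 105 in WT. Of the WT UMIs, the top cell held 13.3% and the top 5 cells 43.8%. In resting DP cells the shares were 0.743% in cKO and 0.534% in WT. Chaperonin UMIs, by contrast, were found in 92.9% of cKO and 93.7% of WT resting DP cells after thinning.

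**Figure D4:**
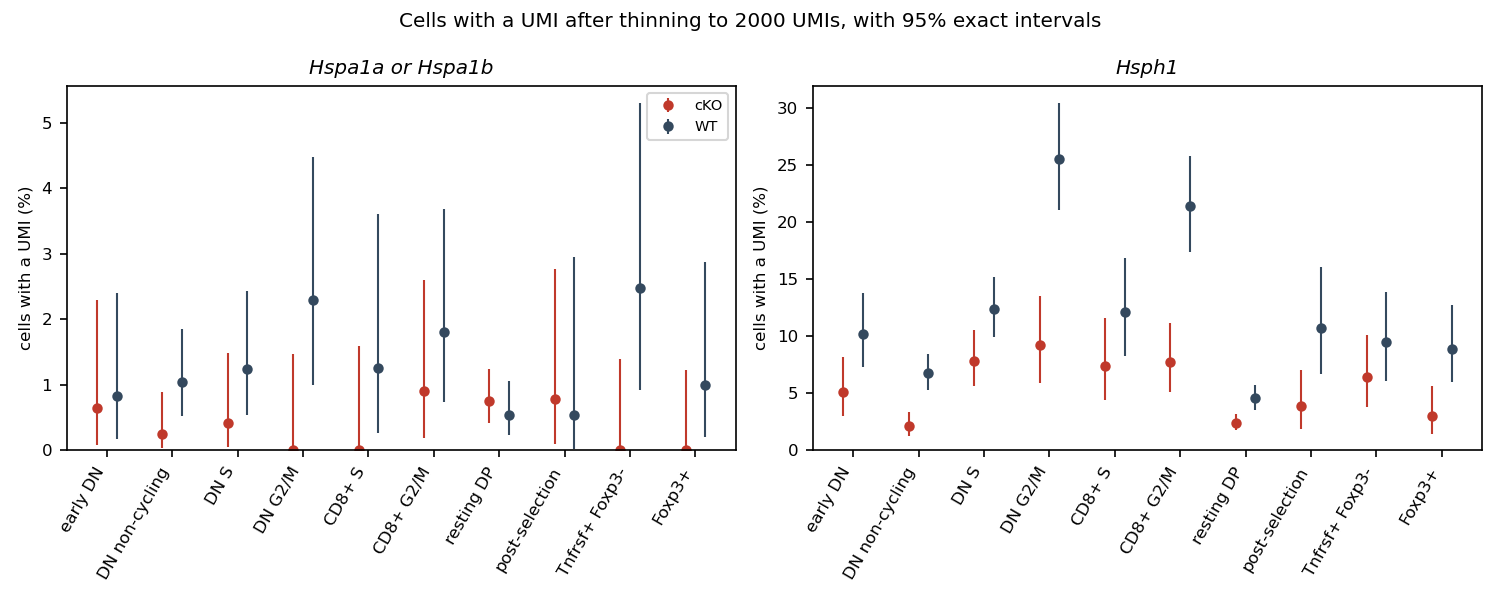
Percent of cells with a UMI after thinning to 2000 UMIs per cell, for Hspa1a or Hspa1b and for Hsph1, cKO left of WT in each stage, with exact 95% intervals. Hsph1 is found in 9.20% of cKO and 25.6% of WT G2/M DN cells.

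Genes of neighbouring processes were read with the same rule. Of 60 other genes of protein folding, 47 to 51 had enough UMIs per stage and none passed 1.5-fold between genotypes in 7 of the 10 stages. Dnajc5, a J-domain protein of vesicles, was at 120 CPM in cKO and 78.1 CPM in WT after selection, and Pdcl, a phosducin-like co-chaperone of TRiC, at 46.4 CPM in cKO and 29.0 CPM in WT. Dnajb14 was at 9.20 CPM in cKO and 17.8 CPM in WT in Foxp3-negative Tnfrsf-positive cells. In Foxp3-positive cells Dnaja3, a mitochondrial J-domain protein, was at 7.80 CPM in cKO and 15.1 CPM in WT, Dnaja4 at 2.93 CPM in cKO and 7.12 CPM in WT, and Vbp1, a prefoldin subunit, at 52.2 CPM in cKO and 81.2 CPM in WT. The summed level of this list was 0.954 to 1.03 of WT. Chaperones of the endoplasmic reticulum had 0 members past 1.5-fold between genotypes. The counts of both lists are near the background, as 0.228% to 4.11% of all genes were lower by stage. Summed, the endoplasmic reticulum chaperones were at 0.853 of WT in Foxp3-positive cells to 1.01 after selection. Their median log2 fold ran from -0.22 in S-phase DN cells, where 13 of 13 were below 0, to 0.10 after selection. It was -0.19 in non-cycling DN cells, -0.20 in Foxp3-positive cells and 0.02 in resting DP cells. The chaperonin medians of these 5 stages, in the same order, were -0.07, -0.21, -0.14, -0.16 and -0.08.

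Early-response genes such as Fos and Egr1 respond to tissue dissociation, which can also raise heat-shock RNA, and were read for that reason. Their median log2 fold of cKO over WT was 0.29 in early DN cells, 0.10, 0.21 and 0.09 in non-cycling, S-phase and G2/M DN cells, 0.00 in CD8-positive S-phase cells, -0.01 in CD8-positive G2/M cells and -0.02 in resting DP cells. It was 0.09 after selection, -0.24 in Foxp3-negative Tnfrsf-positive cells and -0.16 in Foxp3-positive cells, and their part in the chaperone results was not tested. In early DN cells Egr1 was at 34.3 CPM in cKO and 18.3 CPM in WT, while Atf3 was at 3.45 CPM in cKO and 9.89 CPM in WT. Ier3 was at 5.85 CPM in cKO and 11.3 CPM in WT in Foxp3-positive cells. Of 14 early-response genes, 13 were lower in G2/M than in non-cycling DN cells in each library (24.7% of all genes in cKO and 24.3% in WT). Of 13 endoplasmic reticulum chaperones, 9 were higher in each library (14.8% of all genes in cKO and 14.0% in WT).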

How the data were processed

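Per the labels, thymocytes enriched with anti-CD25 beads gave 1 cKO and 1 WT library. What was deposited are unnormalized UMI counts for each gene and barcode, written by Cell Ranger 6.1.1 per the file headers. CASAVA 1.8 and Seurat 4.0.3 are further tools in the submitters' processing notes. Their genome build was not given in sources used here.

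Barcodes needed 500 genes or more, 1000 UMIs or more, and a mitochondrial share of 10% or less. Doublets were scored by scrublet in scanpy 1.11.5 (expected rate 0.06). The automatic threshold called 1 cKO barcode, so the WT threshold of 0.290 was used for both, removing 129 cKO and 148 WT barcodes. Stages are gates on raw UMIs, where the first match wins, and cells without a gate or in mature, effector and B cell gates were not used. Gates are ranges of marker counts, not cell types known from protein. UMIs were summed per stage and divided by the stage total (CPM). Levels carry exact Poisson intervals, ratios exact binomial intervals conditional on the sum, and shares Clopper-Pearson intervals, all at 95%. A share of 0 was given the limit of 3 counts. No count model was fitted. Python 3.11.15, numpy 2.4.6, scipy 1.17.1, pandas 2.3.3, biopython 1.88 and matplotlib 3.10.9 were used. The folds and intervals were tested on simulated Poisson counts drawn from stage sums. That draw leaves out differences between cells, so it cannot show how the intervals hold where few cells carry a gene.

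The members and lists were chosen with earlier results of these data known. All 38 genes are accounted for. Values are printed for members past 1.5-fold between genotypes and for the 3 highest and 3 lowest folds of each group. Of the other lists, members past 1.5-fold are named, at most 4 each. Hspa14 overlaps Gm45902 on the same strand, so its counts are uncertain. Levels of different genes are not compared, because 3′ counts depend on the transcript end.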

Additional observations from a re-analysis of the deposited data

How the results depend on the processing

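With 1 library per genotype, no replicate could be left out. No paired analysis was possible because each genotype has a single library. The alternatives of requiring at least 10 cycling UMIs, of taking cells of 5000 to 10000 UMIs and of taking non-cycling early DN cells were chosen after seeing the data. No member called between genotypes changed direction under any setting in which it had enough UMIs. The HSF1-type and chaperonin medians of G2/M over non-cycling DN or resting DP cells stayed above 0 throughout. HSF1-type medians of cKO over WT were below 0 in every stage under each of the 15 to 17 settings that bear on it, between -0.51 and -0.06. Chaperonin medians lay between -0.30 and 0.01 and were below 0 in 12 of 15 settings for CD8-positive S-phase cells and 16 of 17 for Foxp3-negative Tnfrsf-positive cells. The count of HSF1-type pairs lower in cKO was 17 in the text and 10 of 56 with cells of 5000 to 10000 UMIs, where fewer stages had enough cells. Chaperonin pairs, 0 in the text, were 1 of 80 with raised gate minima, with totals without mitochondrial and ribosomal protein genes, with median ratio scaling and with a pseudocount of 1 CPM. The HSF1-type median in Foxp3-positive cells was -0.46 with gates on thinned cells and with the mean of per-cell CPM. The chaperonin median in non-cycling DN cells was -0.04 with a stricter cell filter.

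For G2/M over non-cycling DN cells the HSF1-type median in cKO was 0.76 with gates on thinned cells, 0.95 with thinned values, 0.80 without mitochondrial and ribosomal protein genes, 1.09 with median ratio scaling, 0.68 with no filter on low counts, 0.96 with at least 50 UMIs and 0.76 with a cycling limit of 20 per 10000. In WT it was 1.03 with thinned values, 0.66 with the stricter cell filter, 0.68 without mitochondrial and ribosomal protein genes and 0.68 with the cycling limit of 20. The chaperonin median in cKO was 0.65 with gates on thinned cells, 0.73 without mitochondrial and ribosomal protein genes, 1.02 with median ratio scaling and 0.73 with the limit of 20. In WT these were 0.71, 0.77, 1.06 and 0.77, and 0.80 with the stricter filter. Median ratio scaling moves folds by the all-gene medians given above. The cause of the other shifts was not tested.

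Hsph1 passed 1.5-fold under every setting in early DN, the DN stages, CD8-positive G2/M, post-selection and Foxp3-positive cells, and in 12 of 15 settings in resting DP cells. Hspa8 passed it in 14 of 15 settings in G2/M DN cells and in 11 of 16 after selection, where its log2 fold lay between -0.70 and -0.31. After selection Hsp90aa1 passed in 10 of 16 and Hspd1 in 12 of 16. Stip1 passed in 14 of 17 and Hsf1 in 15 of 17. With non-cycling cells alone the calls of Hspa8, Hsp90aa1 and Hspd1 after selection and of Stip1 ended, at -0.31, -0.40, -0.31 and -0.44, and Hspa1b had too few UMIs in early DN cells. Filters on low counts cannot move the fold of a single gene.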

Other observations

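One cKO cell in the gate for mature cells, a gate not used above because 47.4% of its cKO cells and 47.9% of its WT cells were cycling, held 77 of the 79 Hspa1a and Hspa1b UMIs of that gate in cKO (97.5%). The other cells of the gate held 2.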
